A study of Mus musculus with 29 samples.

Results

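The Rab GTPases are the family of small GTP-binding proteins that mark intracellular membranes and direct vesicle traffic. Every gene of the arrays whose symbol is Rab followed by a digit, with an optional letter, was taken as a member, and Rab interactors such as Rab3gap or Rab11fip were not. This gave 50 Rab genes of 12394 genes with a probe set of their own. They were measured in macrophages grown from the bone marrow of 8-week-old wild-type C57BL/6 mice, on 29 Affymetrix 3' expression arrays of total RNA. All cells had 7 days in medium with CSF-1 (10 ng/ml), the growth factor that makes marrow cells macrophages, in Teflon bags, and a further 24 h in suspension with CSF-1 at the same dose. In those 24 h, cells had IL-4 (5 arrays), IL-6 (5 arrays), IL-10 (3 arrays), IL-4+IL-6 (5 arrays) or IL-4+IL-10 (3 arrays), each cytokine at 10 ng/ml, or were left unstimulated with CSF-1 alone (8 arrays). The cells are a culture model of 1 strain, and the labels do not say whether the arrays of a group came from separate mice or cultures, so p-values measure only the spread between these arrays. The series concerned the control of cathepsin release by these cytokines in macrophages of tumours, and the comparisons below address how far each cytokine, alone or with IL-4, moved the RNA of the vesicle traffic machinery.

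A Rab protein is switched on when a guanine nucleotide exchange factor (GEF) loads it with GTP, and switched off by a GTPase-activating protein (GAP), most of which carry a TBC domain. In the active form it recruits effectors such as tethers, motors and lipid kinases. A lipid tail, added by Rab geranylgeranyl transferase with a Rab escort protein, holds it on the membrane, and GDP dissociation inhibitors (GDI) return it to the cytosol. In macrophages, Rab proteins of the early endosome, the late endosome and the lysosome act in turn on newly formed phagosomes, and those of the Golgi and the secretory route sort lysosomal enzymes or release them. IL-4 acts through the transcription factor STAT6, and IL-6 and IL-10 both act through STAT3.

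Of the 50 Rab genes, 38 reached the median of all values on the arrays, log2 6.994, on at least 3 arrays and were tested. Levels are log2 intensities, so a difference of 1 is a doubling, and levels are compared between groups for the same probe set, never between genes. A difference was called at a Benjamini-Hochberg adjusted p under 0.05 in limma, a linear model fitted to all 7154 genes tested. The array medians lay between 6.945 and 7.035, and correlations between arrays between 0.9732 and 0.9981. All 8 macrophage markers on the arrays passed the same filter, with group means of Csf1r, Lyz2 and Cd68 all above 13, and none of the markers of T and NK cells, fibroblasts or mast cells did; 5 of 7 neutrophil and 4 of 6 B cell markers passed. Whether RNA changed within each macrophage or the share of cells carrying it changed cannot be told apart in bulk RNA.

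The replicate numbers of the labels divide the arrays into 2 sets, which is inferred here and not stated by the labels. IL-10, IL-4+IL-10 and unstimulated replicates 6 to 8 form the second set, and all other arrays the first. Between unstimulated replicates 6 to 8 and 1 to 5, 14.4% of all genes tested were called, 8.96% higher and 5.48% lower, and so were 7 of 38 Rab genes, all of them higher in replicates 6 to 8: Rab5c, Rab13, Rab34, Rab2b, Rab21, Rab31 and Rab11a. The B cell genes Ms4a1 (-2.00), Jchain (-2.15) and Ighm (-1.21) were lower on the log2 scale in replicates 6 to 8, and over the 6 listed B cell genes the summed linear signal was 2296 to 2616 there, against 3938 to 7834 in replicates 1 to 5. For Actb, the 3' minus 5' probe set level, which reads RNA integrity, was 0.44 ± 0.070 in replicates 6 to 8 (SD, n = 3), against 0.32 ± 0.0089 in replicates 1 to 5 (SD, n = 5). Values from a fit with a term for the set are therefore given beside every Rab call below that it ends. In the stimulated groups it was 0.322 ± 0.017 with IL-4, 0.248 ± 0.019 with IL-6 and 0.363 ± 0.019 with IL-4+IL-6 (SD, n = 5 each), and 0.342 ± 0.028 with IL-10 and 0.419 ± 0.036 with IL-4+IL-10 (SD, n = 3 each). The part of RNA integrity in any Rab difference was not tested.

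Promoter windows, from 250 bases before to 50 bases after the annotated start of the gene (RefSeq, build GRCm38.p6), were at hand for 42 of the 50 Rab genes. Those of Rab20, Rab34 and Rab32 are shown because these Rab genes of the phagosome and the lysosome were lowered by IL-4 and then parted once IL-6 or IL-10 was added. That of Rab11a, a Rab gene of the recycling endosome, is shown because IL-4 lowered it while IL-6 and IL-10 raised it on the probe set used. Its other probe set fell with IL-4 (-0.32, adjusted p = 1.43e-05, limma). That probe set was not called with IL-6 (0.067, adjusted p = 0.36) or IL-10 (0.14, adjusted p = 0.0935). Capitals mark a match to TTCNNNGAA, the spacing bound by STAT3 and other STAT proteins, to TTCNNNNGAA, the spacing preferred by STAT6, or to CACGTG, the E-box of TFEB and related factors of lysosomal genes. All letters run 5′ to 3′ on the strand of the gene.
Rab20 (chr8:11478591-11478890, minus strand): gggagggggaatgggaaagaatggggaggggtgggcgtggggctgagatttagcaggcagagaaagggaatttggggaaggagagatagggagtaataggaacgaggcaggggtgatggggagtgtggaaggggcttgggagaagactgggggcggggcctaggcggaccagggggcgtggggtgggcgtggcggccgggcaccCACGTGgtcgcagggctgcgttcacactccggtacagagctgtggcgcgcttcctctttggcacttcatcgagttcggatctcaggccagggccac
Rab34 (chr11:78188177-78188476, plus strand): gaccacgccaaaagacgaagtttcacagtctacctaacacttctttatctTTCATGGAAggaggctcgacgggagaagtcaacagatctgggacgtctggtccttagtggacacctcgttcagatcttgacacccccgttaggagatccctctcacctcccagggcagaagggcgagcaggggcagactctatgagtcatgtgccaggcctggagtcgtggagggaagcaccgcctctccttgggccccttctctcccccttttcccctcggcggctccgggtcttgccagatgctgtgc
Rab32 (chr10:10558158-10558457, minus strand): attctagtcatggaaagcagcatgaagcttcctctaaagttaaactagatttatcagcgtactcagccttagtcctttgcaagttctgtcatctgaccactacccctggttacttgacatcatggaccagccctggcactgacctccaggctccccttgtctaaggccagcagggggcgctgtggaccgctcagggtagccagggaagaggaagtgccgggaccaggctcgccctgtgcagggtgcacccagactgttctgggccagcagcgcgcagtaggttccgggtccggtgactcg
Rab11a (chr9:64737707-64738006, minus strand): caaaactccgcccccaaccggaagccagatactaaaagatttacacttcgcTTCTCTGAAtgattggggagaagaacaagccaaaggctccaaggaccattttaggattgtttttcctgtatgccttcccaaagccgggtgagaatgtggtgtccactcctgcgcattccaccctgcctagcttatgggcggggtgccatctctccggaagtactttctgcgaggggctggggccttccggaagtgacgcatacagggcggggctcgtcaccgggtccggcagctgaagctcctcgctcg
The Rab20 window holds 1 CACGTG, whose first base lies 46 bases before the start. The Rab34 window holds 1 TTCNNNGAA, 200 bases before the start, and the Rab11a window 1 TTCNNNGAA, 199 bases before the start. A second Rab34 window, from a start further along the plus strand (chr11:78188498-78188797), holds none of the 3 motifs, and neither does the Rab32 window. Each motif reads the same on both strands, and a match is only a match of letters: over all 32851 promoter windows, TTCNNNGAA was found in 8.3%, TTCNNNNGAA in 6.95% and CACGTG in 7.15%. TTCNNNGAA was found for Rab11a, Rab15, Rab25 and Rab34, TTCNNNNGAA for Rab11b, Rab15 and Rab5b, and CACGTG for Rab20, Rab21, Rab23, Rab24, Rab27a and Rab5a. These are 4, 3 and 6 of the 42 Rab genes with windows. Over all 27025 genes with windows, the shares were 9.55% for TTCNNNGAA, 8.01% for TTCNNNNGAA and 8.09% for CACGTG.

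IL-4 lowered more of the tested Rab genes than it raised. Of 38 Rab genes tested, 29 were called against unstimulated cells, where 59.5% of all genes tested were called; 23 of these fell, where 31.9% of all genes fell, and 6 rose, where 27.6% of all genes rose. The median difference was -0.126 over the 38 Rab genes and -0.0136 over all genes tested. With a term for the set, 19 fell and 6 rose, with 30.1% of all genes lower and 28.3% higher. Most of the changes were small, since 17 of the 23 Rab genes that fell did so by less than 0.5 on the log2 scale. The summed linear signal of the 8 macrophage markers on the arrays was 69931 to 72182 with IL-4, 96767 to 100280 with IL-6, 95269 to 99070 with IL-10, 66345 to 69039 with IL-4+IL-6 and 66709 to 71862 with IL-4+IL-10, against 90435 to 94421 in unstimulated cells. For the 7 neutrophil markers it was 5095 to 6685 with IL-4, 5961 to 8241 with IL-6, 7647 to 11077 with IL-10, 4315 to 5714 with IL-4+IL-6 and 5010 to 7700 with IL-4+IL-10, against 7067 to 11184 in unstimulated cells. For the 6 B cell markers it was 2349 to 5764 with IL-4, 4272 to 9224 with IL-6, 2035 to 2548 with IL-10, 2745 to 7554 with IL-4+IL-6 and 1388 to 1545 with IL-4+IL-10, against 2296 to 7834 in unstimulated cells. For the 3 erythroid and megakaryocyte markers, of which 2 passed the filter, it was 1585 to 1858 with IL-4, 5851 to 7939 with IL-6, 7186 to 7982 with IL-10, 3196 to 3778 with IL-4+IL-6 and 3695 to 4105 with IL-4+IL-10, against 2524 to 3671 in unstimulated cells. Pf4, a platelet chemokine, makes up most of it, with group means of 10.52 with IL-4, 12.67 with IL-6, 12.84 with IL-10, 11.73 with IL-4+IL-6 and 11.82 with IL-4+IL-10, against 11.47 in unstimulated cells (log2). Alas2, of heme synthesis in red cells, had group means of 4.43 to 4.78, under the filter. For the 4 dendritic cell markers, of which Ccr7 alone passed the filter, it was 217 to 297 with IL-4, 162 to 186 with IL-6, 190 to 216 with IL-10, 176 to 234 with IL-4+IL-6 and 246 to 277 with IL-4+IL-10, against 158 to 214 in unstimulated cells. The part of these markers in the Rab differences was not tested.

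Among the 10 Rab genes of the late endosome, lysosome, phagosome and autophagy, all of which were tested, 8 fell with IL-4, 1 rose and 1 was not called, where 31.9% of all genes fell and 27.6% rose. Rab20, which acts in the maturation of phagosomes, had 6.25, 6.10, 6.40, 6.27 and 5.89 with IL-4, against a lowest, median and highest value of 7.34, 7.49 and 7.88 in unstimulated cells. All 5 IL-4 arrays lay more than a full log2 unit under the unstimulated group's mean. Its difference was -1.35 ± 0.091, adjusted p = 4.96e-13 (log2, SE, limma), and its mean with IL-4, 6.18 ± 0.20 (SD, n = 5), lay under the filter, so no fold is given. Rab20 passed the filter only through arrays of the other groups. A difference from IL-4 alone was therefore bound to appear, here and wherever IL-4 alone is set against another group below. Rab34, which acts in macropinocytosis and in the placing of lysosomes, had 7.76, 7.75, 7.86, 7.67 and 7.71 with IL-4, against a lowest, median and highest value of 8.65, 8.70 and 9.10 in unstimulated cells. No IL-4 array reached any unstimulated array, and the difference was -1.03 ± 0.065, adjusted p = 1.38e-13, a 2.04-fold lower level. Rab32, which acts in lysosome-related organelles and on phagosomes, had 9.95, 9.96, 9.83, 9.89 and 9.73 with IL-4, against a lowest, median and highest value of 10.53, 10.61 and 10.98 in unstimulated cells. The groups did not overlap, and the difference was -0.77 ± 0.054, adjusted p = 9.79e-13, a 1.71-fold lower level. Rab7b, which in macrophages acts on late endosomes and limits Toll-like receptor signals, had 11.55, 11.54, 11.74, 11.68 and 11.77 with IL-4, against a lowest, median and highest value of 12.16, 12.25 and 12.44 in unstimulated cells. Here too the groups were apart, with a difference of -0.60 ± 0.047, adjusted p = 1.43e-11.

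The other late endosomal Rab genes that fell with IL-4 moved less: Rab9, which returns mannose 6-phosphate receptors to the Golgi, by -0.42 ± 0.046, adjusted p = 8.62e-09, and Rab7, which drives fusion of late endosomes with lysosomes, by -0.27 ± 0.03, adjusted p = 1.15e-08. Rab24 and Rab12, both linked to autophagy and degradation, had differences of -0.11 ± 0.043, adjusted p = 0.0248 and -0.11 ± 0.042, adjusted p = 0.03, and the call of Rab24 ended with a term for the set (-0.10 ± 0.047, adjusted p = 0.0701). Rab29, linked to lysosome stress through the kinase LRRK2, was not called (-0.085 ± 0.052). Rab38, the close relative of Rab32, was the member of this group that moved the other way. It had 7.63, 7.52, 7.50, 7.46 and 7.23 with IL-4, against a lowest, median and highest value of 6.27, 6.57 and 7.05 in unstimulated cells, and every IL-4 array lay above every unstimulated one (0.87 ± 0.098, adjusted p = 1.71e-08). Its unstimulated mean of 6.60 ± 0.28 (SD, n = 8) lay under the filter, which it passed through stimulated arrays. A rise over unstimulated cells was therefore bound to appear, here and with every other treatment below, and no fold is given. Rab24 was not called with IL-4 without IL-4 replicate 1 or 3 or unstimulated replicate 7 (adjusted p = 0.0517 to 0.0844). Rab12 was not called with IL-4 without IL-4 replicate 2 or 4 or unstimulated replicate 1, 2 or 4 (adjusted p = 0.059 to 0.0994).

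**Figure D1:**
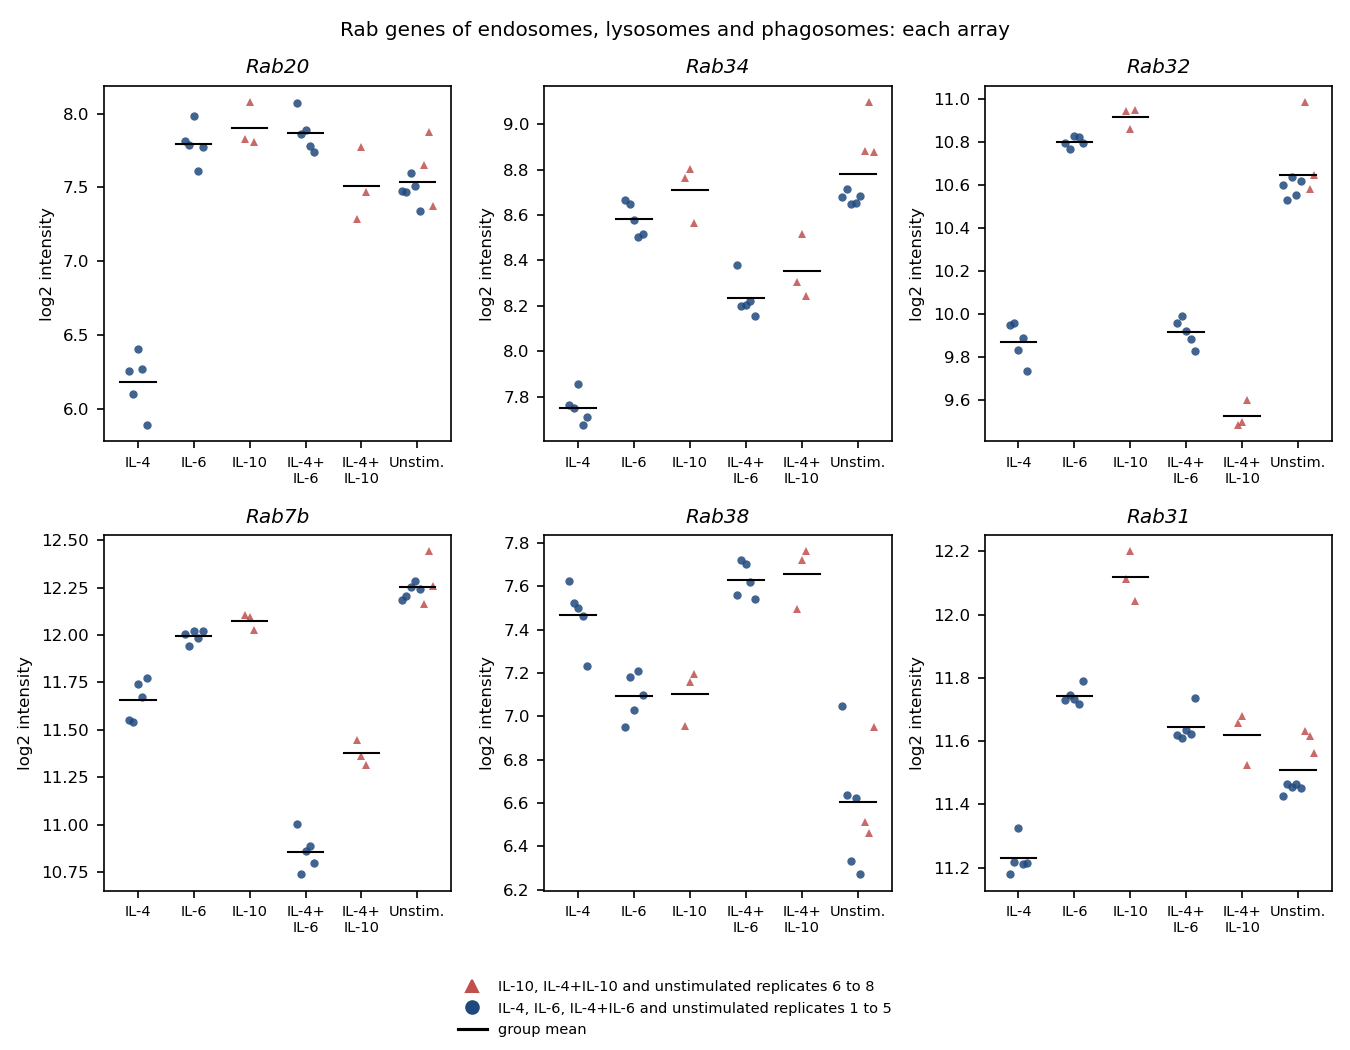
Log2 intensity on each of the 29 arrays for 6 Rab genes of endosomes, lysosomes and phagosomes, with the 5 stimulated groups and the unstimulated group from left to right. Circles and triangles are the first and second set of arrays, and bars are group means. Rab20 and Rab34 are lowest with IL-4 alone, Rab32 is lowest with IL-4+IL-10, Rab7b is lowest with IL-4+IL-6, and Rab38 is lowest in unstimulated cells.

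Of 11 Rab genes of the early endosome and recycling that were tested, 8 fell with IL-4, where 31.9% of all genes fell, and 1 rose. Of the 8, Rab5c and Rab4b were not called with a term for the set. Rab5c, which with Rab5a and Rab5b drives fusion of early endosomes, differed by -0.57 ± 0.21, adjusted p = 0.0204, but only by -0.089 ± 0.088, adjusted p = 0.403 with a term for the set; it is described apart. Rab31, which carries mannose 6-phosphate receptors from the Golgi to endosomes, had 11.18, 11.22, 11.33, 11.21 and 11.22 with IL-4, against a lowest, median and highest value of 11.43, 11.47 and 11.63 in unstimulated cells, all IL-4 arrays being lower (-0.28 ± 0.039, adjusted p = 7.17e-07). Falls of a similar size were seen for Rab4a (-0.31 ± 0.084, adjusted p = 0.00282), a Rab of fast recycling, and for Rab11a (-0.25 ± 0.036, adjusted p = 9.43e-07), a Rab of slow recycling. Smaller falls were those of Rab5a (-0.18 ± 0.044, adjusted p = 0.00112), Rab14 (-0.16 ± 0.03, adjusted p = 4.65e-05), Rab11b (-0.12 ± 0.04, adjusted p = 0.0127) and Rab4b (-0.13 ± 0.052, adjusted p = 0.0283), and the last had -0.11 ± 0.057, adjusted p = 0.102 with a term for the set. Rab22a, which acts in sorting at the early endosome, rose on the probe set used (0.16 ± 0.042, adjusted p = 0.00178), while another fell (-0.15, adjusted p = 0.00896). Rab4b was not called with IL-4 without IL-4 replicate 2 or unstimulated replicate 7 (adjusted p = 0.0567 to 0.133). The fall of Rab31 was called only on the probe set used, and not on its other one (-0.056, adjusted p = 0.577).

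The Golgi and secretory Rab genes went both ways with IL-4. Of 9 tested Rab genes of the endoplasmic reticulum and Golgi, 3 fell and 2 rose, near the 31.9% of all genes that fell and the 27.6% that rose. Those that fell were Rab6b, a Golgi Rab best known from neurons (-0.64 ± 0.086, adjusted p = 3.01e-07), Rab33b, which binds the autophagy protein Atg16l1 (-0.45 ± 0.05, adjusted p = 1.19e-08), and Rab2b, of traffic between the endoplasmic reticulum and Golgi (-0.43 ± 0.06, adjusted p = 5.38e-07). The level of Rab6b with IL-4, 6.69 ± 0.10 (SD, n = 5), was under the filter, which it passed through unstimulated, IL-6 and IL-10 arrays alone. A fall against those groups was therefore bound to appear, here and below with the combinations. Rab1b, of the same early secretory step (0.19 ± 0.04, adjusted p = 0.000211), and Rab43, a Golgi Rab (0.16 ± 0.061, adjusted p = 0.0233), rose. The call of Rab43 ended with a term for the set (0.13 ± 0.067, adjusted p = 0.0934). Of 6 tested Rab genes of exocytosis, 2 rose and 2 fell, also near those shares. Rab3d, of secretory granules (0.21 ± 0.067, adjusted p = 0.00751), and Rab10, which supplies Toll-like receptor 4 to the macrophage surface (0.16 ± 0.041, adjusted p = 0.00135), rose. Rab13, of cell junctions and migration (-0.25 ± 0.08, adjusted p = 0.00862), and Rab8b, of transport to the plasma membrane (-0.079 ± 0.032, adjusted p = 0.037), fell. Rab13 was not called with a term for the set (-0.11 ± 0.065, adjusted p = 0.14). Both tested members outside these routes fell, Rab40c, a subunit of a ubiquitin ligase (-0.33 ± 0.045, adjusted p = 3.86e-07), and Rab28, a Rab of cilia (-0.17 ± 0.036, adjusted p = 0.000174). On its other probe set, Rab28 was not called (-0.050, adjusted p = 0.426). Rab43 was not called with IL-4 without IL-4 replicate 1 or 2 (adjusted p = 0.0557 to 0.0759). Rab8b was not called with IL-4 without IL-4 replicate 1, 4 or 5 or unstimulated replicate 2, 3, 4, 5 or 6 (adjusted p = 0.0517 to 0.101).

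**Figure D2:**
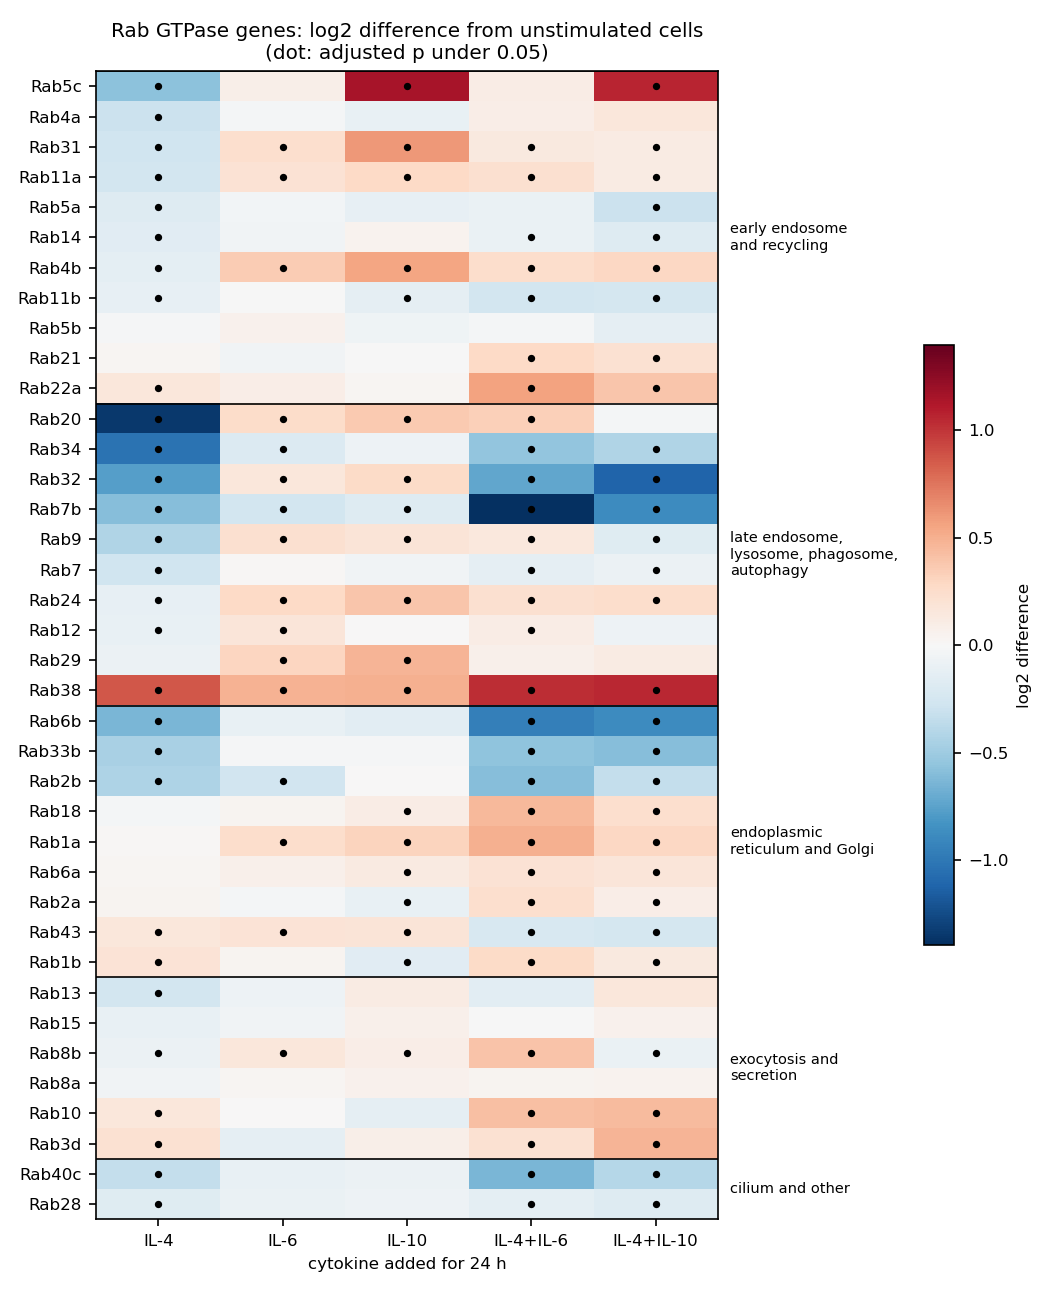
Log2 difference from unstimulated cells for the 38 tested Rab genes (down the page, grouped by the route they serve) with each of 5 cytokine treatments (across). Blue is lower and red is higher than in unstimulated cells, and a dot marks an adjusted p under 0.05 in limma without a term for the set. The column of IL-4 has 23 lower and 6 higher calls, and that of IL-6 has 3 lower and 13 higher calls.

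IL-6 alone raised more Rab genes than it lowered, by small amounts. Of 38 Rab genes, 16 were called against unstimulated cells, where 39.3% of all genes tested were called; 13 rose, where 16.1% of all genes rose, and 3 fell, where 23.1% of all genes fell. Of the 10 late endosomal Rab genes, 7 rose and 2 fell. Rab4b had 10.07, 10.00, 10.04, 9.95 and 9.99 with IL-6, against a lowest, median and highest value of 9.54, 9.63 and 9.92 in unstimulated cells, and each IL-6 array was above each unstimulated one (0.35 ± 0.052, adjusted p = 2.98e-06). Rab29 had 10.15, 10.11, 10.07, 10.09 and 10.09 with IL-6, against a lowest, median and highest value of 9.64, 9.79 and 9.96 in unstimulated cells, again with no overlap (0.30 ± 0.052, adjusted p = 3.68e-05). The other large rises were those of Rab38 (0.49 ± 0.098, adjusted p = 0.00021), Rab24 (0.28 ± 0.043, adjusted p = 5.73e-06), Rab20 (0.26 ± 0.091, adjusted p = 0.0249) and Rab1a (0.25 ± 0.026, adjusted p = 1.04e-08). Of these, Rab20 and Rab38 overlapped unstimulated arrays. Rab24 and Rab1a, the isoform of Rab1b in the step out of the endoplasmic reticulum, did not. The rise of Rab38 was bound to appear, its unstimulated mean being under the filter. Rab31, Rab9, Rab11a, Rab8b, Rab32, Rab12 and Rab43 rose by 0.15 to 0.23, and Rab43 was not called with a term for the set (0.16 ± 0.067, adjusted p = 0.0592). Rab11a was not called on its other probe set (0.067, adjusted p = 0.36). The Rab genes that fell were Rab2b (-0.27 ± 0.06, adjusted p = 0.000777), Rab7b (-0.26 ± 0.047, adjusted p = 6.23e-05) and Rab34 (-0.20 ± 0.065, adjusted p = 0.018), and Rab34 was not called with a term for the set (-0.092 ± 0.056, adjusted p = 0.22). Rab2b had -0.16 ± 0.048, adjusted p = 0.0099 with that term. It was not called on its other probe sets that passed the filter (-0.16, adjusted p = 0.0564 and -0.14, adjusted p = 0.121). Rab20 was not called with IL-6 without IL-6 replicate 3 (adjusted p = 0.0866). Rab34 was not called with IL-6 without IL-6 replicate 4 (adjusted p = 0.0533).

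IL-10 alone gave a similar count. Of 38 Rab genes, 19 were called against unstimulated cells, 15 higher and 4 lower, where 37.8% of all genes tested were called, 18.3% higher and 19.5% lower. IL-6 and IL-10 share the unstimulated arrays, so no measure of likeness is given. Rab31 had 12.11, 12.20 and 12.04 with IL-10, against a lowest, median and highest value of 11.43, 11.47 and 11.63 in unstimulated cells, with no overlap (0.61 ± 0.047, adjusted p = 2.87e-11, a 1.53-fold higher level). Rab4b had 10.15, 10.28 and 10.18 with IL-10, also above every unstimulated array (0.55 ± 0.061, adjusted p = 4.04e-08). Further rises were those of Rab38 (0.50 ± 0.12, adjusted p = 0.00117), Rab29 (0.47 ± 0.062, adjusted p = 5.49e-07) and Rab24 (0.39 ± 0.051, adjusted p = 5.24e-07). Of these, Rab38 overlapped unstimulated arrays, and its rise was bound to appear for the same reason as with IL-6.

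The IL-10 counts moved with the arrays and terms in the fit, and the cause was not tested. The count was 12 without IL-10 replicate 2. With a term for the set, 13 Rab genes were called, 10 higher and 3 lower, where 28.2% of all genes were called, 12.3% higher and 15.9% lower. In a fit of the second set alone, 3 IL-10 arrays against unstimulated replicates 6 to 8, 8 were called, all higher, where 19.5% of all genes were called and 8.97% were higher. With the arrays of that set paired by their order of number as a block, 11 were called. No share over all genes is given for that fit or for the one without IL-10 replicate 2. Those that a set term left uncalled were Rab20 (0.27 ± 0.13, adjusted p = 0.116), Rab32 (0.18 ± 0.07, adjusted p = 0.0596), Rab9 (0.15 ± 0.065, adjusted p = 0.088), Rab18 (0.075 ± 0.042, adjusted p = 0.186), Rab6a (0.12 ± 0.051, adjusted p = 0.0818), Rab11b (-0.071 ± 0.054, adjusted p = 0.366), Rab1b (-0.065 ± 0.049, adjusted p = 0.355) and Rab2a (-0.085 ± 0.037, adjusted p = 0.0888). Before that term, the lower calls were Rab7b (-0.18 ± 0.056, adjusted p = 0.0131), Rab1b (-0.15 ± 0.048, adjusted p = 0.0124), Rab11b (-0.13 ± 0.048, adjusted p = 0.0363) and Rab2a (-0.10 ± 0.032, adjusted p = 0.0107). Rab7b was not called on its other probe set (-0.056, adjusted p = 0.605) or within the second set alone (-0.21 ± 0.076, adjusted p = 0.0788). Rab31, Rab4b, Rab29 and Rab24 were called in each of the 3 fits, and within the second set alone their differences were 0.51 ± 0.065, adjusted p = 0.000253 for Rab31, 0.51 ± 0.1, adjusted p = 0.00459 for Rab4b, 0.41 ± 0.082, adjusted p = 0.00473 for Rab29 and 0.37 ± 0.077, adjusted p = 0.00628 for Rab24. Rab7b was not called with IL-10 without IL-10 replicate 3 (adjusted p = 0.0752). Rab1b was not called with IL-10 without IL-10 replicate 2 (adjusted p = 0.0647). Rab11b was not called with IL-10 without IL-10 replicate 1, 2 or 3 or unstimulated replicate 1, 4 or 5 (adjusted p = 0.0517 to 0.16). Rab2a was not called with IL-10 without IL-10 replicate 3 (adjusted p = 0.0625).

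With both cytokines, the losses of the late endosomal Rab genes under IL-4 were kept for some members and absent for others. IL-4+IL-6 called 30 of 38 Rab genes against unstimulated cells, 18 higher and 12 lower, where 73.8% of all genes tested were called, 35% higher and 38.8% lower. IL-4+IL-10 also called 30, 15 in each direction, where 72.1% of all genes were called, 38.1% higher and 34% lower. The share of Rab genes called in any direction was thus near that of all genes in both combinations.

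Rab7b fell furthest with IL-4+IL-6. It had 11.01, 10.74, 10.86, 10.88 and 10.79 with IL-4+IL-6, against a lowest, median and highest value of 12.16, 12.25 and 12.44 in unstimulated cells, which is a 2.63-fold lower level (-1.40 ± 0.047, adjusted p = 2.23e-20). With IL-4+IL-10 it had 11.45, 11.36 and 11.32, also under all unstimulated arrays (-0.88 ± 0.056, adjusted p = 9e-14). Rab32 was lowest with IL-4+IL-10, at 9.48, 9.50 and 9.60, under all unstimulated arrays (-1.12 ± 0.064, adjusted p = 8.91e-15, a 2.17-fold lower level). With IL-4+IL-6, Rab32 had 9.96, 9.99, 9.92, 9.88 and 9.83 (-0.73 ± 0.054, adjusted p = 1.23e-12), which overlapped the range with IL-4 alone. Rab20 was not lower than in unstimulated cells in either combination: it had 8.07, 7.86, 7.89, 7.78 and 7.74 with IL-4+IL-6 (0.33 ± 0.091, adjusted p = 0.00181) and 7.29, 7.77 and 7.47 with IL-4+IL-10 (-0.026 ± 0.11, adjusted p = 0.838, not called), against a lowest, median and highest value of 7.34, 7.49 and 7.88 in unstimulated cells. Rab34 lay between, with 8.38, 8.20, 8.21, 8.22 and 8.15 with IL-4+IL-6 (-0.55 ± 0.065, adjusted p = 2.06e-08) and 8.30, 8.52 and 8.24 with IL-4+IL-10 (-0.42 ± 0.078, adjusted p = 2.23e-05). Rab38 was high in both combinations. It had 7.56, 7.72, 7.70, 7.62 and 7.54 with IL-4+IL-6 (1.03 ± 0.098, adjusted p = 2.84e-10). With IL-4+IL-10 it had 7.50, 7.72 and 7.76 (1.06 ± 0.12, adjusted p = 6.49e-09). Both rises were bound to appear, since its unstimulated mean lay under the filter.

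Of the 9 tested Rab genes of the endoplasmic reticulum and Golgi, 5 were higher and 4 lower in each combination. Of the 6 of exocytosis, 3 were higher and none lower with IL-4+IL-6, and 2 were higher and 1 lower with IL-4+IL-10. For all genes the shares were 35% higher and 38.8% lower with IL-4+IL-6, and 38.1% higher and 34% lower with IL-4+IL-10. Of the 11 of the early endosome, 5 were higher and 2 lower with IL-4+IL-6, and 6 were higher and 3 lower with IL-4+IL-10. With IL-4+IL-6 the large rises were those of Rab1a (0.49 ± 0.026, adjusted p = 8.57e-16), Rab18 (0.45 ± 0.03, adjusted p = 1.51e-13), Rab10 (0.42 ± 0.041, adjusted p = 5.61e-10) and Rab8b (0.40 ± 0.032, adjusted p = 9.35e-12). With IL-4+IL-10 they were those of Rab10 (0.44 ± 0.049, adjusted p = 7.88e-09) and Rab1a (0.29 ± 0.031, adjusted p = 2.95e-09), beside Rab5c. Rab22a rose with IL-4+IL-6 on the probe set used (0.56 ± 0.042, adjusted p = 1.23e-12), but fell there on another (-0.15, adjusted p = 0.00584). With IL-4+IL-10 it rose on the probe set used (0.38 ± 0.049, adjusted p = 9.97e-08) and was not called on the other (-0.0032, adjusted p = 0.964). Rab3d rose with IL-4+IL-10 on the probe set used (0.48 ± 0.08, adjusted p = 6.57e-06), and was not called on the others (0.11, adjusted p = 0.0936 and 0.11, adjusted p = 0.1). Rab18, a Rab of lipid droplets and the endoplasmic reticulum, had 11.42, 11.35, 11.38, 11.35 and 11.35 with IL-4+IL-6 and 11.09, 11.15 and 11.25 with IL-4+IL-10, against a lowest, median and highest value of 10.85, 10.92 and 11.02 in unstimulated cells. All arrays of both combinations were above all unstimulated arrays for Rab18 on the probe set used. Its other probe set rose with IL-4+IL-6 (0.56, adjusted p = 5.82e-12) and was not called with IL-4+IL-10 (-0.0021, adjusted p = 0.974). Rab8b had 13.44, 13.53, 13.51, 13.51 and 13.56 with IL-4+IL-6, above all unstimulated arrays, and 13.05, 13.05 and 12.97 with IL-4+IL-10, overlapping the unstimulated range of 12.97 to 13.20; its call with IL-4+IL-10 (-0.089 ± 0.038, adjusted p = 0.0384) was lost with a term for the set (-0.035 ± 0.042, adjusted p = 0.473). The lower Rab genes of other routes with IL-4+IL-6 were Rab6b (-0.96 ± 0.086, adjusted p = 7.27e-11), Rab40c (-0.64 ± 0.045, adjusted p = 5e-13), Rab2b (-0.59 ± 0.06, adjusted p = 8.18e-10) and Rab33b (-0.56 ± 0.05, adjusted p = 8.78e-11). With IL-4+IL-10 they were Rab6b (-0.88 ± 0.10, adjusted p = 1.65e-08), Rab33b (-0.60 ± 0.06, adjusted p = 1.11e-09) and Rab40c (-0.39 ± 0.053, adjusted p = 2.45e-07). The mean of Rab6b was under the filter in both, at 6.38 ± 0.32 with IL-4+IL-6 (SD, n = 5) and 6.46 ± 0.0081 with IL-4+IL-10 (SD, n = 3). Its falls were thus bound to appear. A term for the set also ended the calls of Rab12 (0.068 ± 0.044, adjusted p = 0.171) and Rab14 (-0.058 ± 0.03, adjusted p = 0.0835) with IL-4+IL-6. With IL-4+IL-10 it ended those of Rab11a (0.02 ± 0.041, adjusted p = 0.693), Rab31 (0.016 ± 0.046, adjusted p = 0.771), Rab43 (-0.19 ± 0.086, adjusted p = 0.0529) and Rab7 (-0.071 ± 0.043, adjusted p = 0.153). Rab8b was not called with IL-4+IL-10 without IL-4+IL-10 replicate 3 or unstimulated replicate 2, 3, 4, 5 or 6 (adjusted p = 0.0503 to 0.215).

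Set directly against IL-4 alone, in arrays of the same set, adding IL-6 raised 21 Rab genes and lowered 6, so 27 of 38 were called, where 60.5% of all genes tested were called, 29.4% higher and 31.2% lower. Rab20 rose most, with 8.07, 7.86, 7.89, 7.78 and 7.74 with IL-4+IL-6, against 6.25, 6.10, 6.40, 6.27 and 5.89 with IL-4 (1.69 ± 0.10, adjusted p = 3.11e-14). No array of the one group came near the other. Rab20 passed the filter only outside the IL-4 group, so this difference was bound to appear. Rab9 had 11.26, 11.29, 11.12, 11.12 and 10.96 with IL-4+IL-6, against 10.66, 10.62, 10.56, 10.57 and 10.48 with IL-4, also apart (0.57 ± 0.051, adjusted p = 1.32e-10). Other rises were those of Rab5c (0.67 ± 0.23, adjusted p = 0.0137), Rab34 (0.48 ± 0.072, adjusted p = 1.79e-06), Rab1a (0.48 ± 0.029, adjusted p = 4.34e-14) and Rab18 (0.48 ± 0.033, adjusted p = 9.21e-13). The falls were those of Rab7b (-0.80 ± 0.052, adjusted p = 1.85e-13), Rab43 (-0.39 ± 0.067, adjusted p = 1.53e-05), Rab6b (-0.32 ± 0.095, adjusted p = 0.00536), Rab40c (-0.30 ± 0.05, adjusted p = 6.56e-06), Rab2b (-0.16 ± 0.066, adjusted p = 0.0371) and Rab11b (-0.13 ± 0.045, adjusted p = 0.0121), and Rab7b fell to a 1.74-fold lower level. Rab6b was under the filter in both groups. Rab2b was not called for IL-4+IL-6 against IL-4 without IL-4 replicate 1, 3 or 4 or IL-4+IL-6 replicate 1, 2, 4 or 5 (adjusted p = 0.0559 to 0.0777).

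Set against IL-6 alone, adding IL-4 called 23 of 38 Rab genes, 11 higher and 12 lower, where 66.9% of all genes tested were called, 34% higher and 32.9% lower. The rises were led by Rab38 (0.54 ± 0.11, adjusted p = 9.65e-05), Rab10 (0.41 ± 0.046, adjusted p = 8.24e-09), Rab18 (0.41 ± 0.033, adjusted p = 1.79e-11) and Rab21 (0.32 ± 0.044, adjusted p = 3.02e-07), the last a Rab of integrin traffic. Rab22a and Rab3d were higher on the probe sets used (0.47 ± 0.046, adjusted p = 6.66e-10 for Rab22a and 0.34 ± 0.075, adjusted p = 0.000255 for Rab3d), but fell on another probe set of each (-0.13, adjusted p = 0.0235 for Rab22a and -0.14, adjusted p = 0.0408 for Rab3d). Leading the falls were Rab7b (-1.14 ± 0.052, adjusted p = 5.39e-17), Rab32 (-0.89 ± 0.06, adjusted p = 2.81e-13), Rab6b (-0.86 ± 0.095, adjusted p = 7.79e-09), Rab33b (-0.54 ± 0.056, adjusted p = 2.26e-09), Rab40c (-0.53 ± 0.05, adjusted p = 3.04e-10) and Rab43 (-0.42 ± 0.067, adjusted p = 4.12e-06). The fall of Rab6b, which passed the filter with IL-6 but not with IL-4+IL-6, was bound to appear. Rab20, at 7.87 ± 0.13 with IL-4+IL-6 and 7.79 ± 0.13 with IL-6 (SD, n = 5 each), was not called (0.075 ± 0.10).

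Adding IL-10 to IL-4 set arrays of different sets against each other. Against IL-4 alone, IL-4+IL-10 called 24 of 38 Rab genes, 20 higher and 4 lower, where 57.3% of all genes tested were called, 32.7% higher and 24.6% lower. With a term for the set, 15 were called, 12 higher and 3 lower, where 33.1% of all genes were called, 17% higher and 16.1% lower. Rab20 had 7.29, 7.77 and 7.47 with IL-4+IL-10, against 6.25, 6.10, 6.40, 6.27 and 5.89 with IL-4, with no overlap (1.33 ± 0.12, adjusted p = 3.55e-10; 1.17 ± 0.16, adjusted p = 3.06e-06 with the term). The next rises were those of Rab34 (0.60 ± 0.084, adjusted p = 1.02e-06), Rab4a (0.46 ± 0.11, adjusted p = 0.000705) and Rab4b (0.42 ± 0.066, adjusted p = 7.2e-06), and the term left Rab34 at 0.33 ± 0.092, adjusted p = 0.00748. Rab5c (1.63 ± 0.27, adjusted p = 1.04e-05) and Rab13 (0.41 ± 0.10, adjusted p = 0.00153) were not called with the term (0.36 ± 0.14, adjusted p = 0.0587 and 0.037 ± 0.11, adjusted p = 0.817). The term also ended the calls of Rab9 (0.20 ± 0.082, adjusted p = 0.0631), Rab29 (0.10 ± 0.092, adjusted p = 0.418), Rab6a (0.14 ± 0.065, adjusted p = 0.109), Rab3d (0.095 ± 0.11, adjusted p = 0.559), Rab8a (0.054 ± 0.059, adjusted p = 0.517) and Rab21 (0.017 ± 0.056, adjusted p = 0.841). The falls were those of Rab43 (-0.40 ± 0.078, adjusted p = 8.54e-05), Rab32 (-0.35 ± 0.069, adjusted p = 0.000129), Rab7b (-0.28 ± 0.06, adjusted p = 0.000271) and Rab11b (-0.13 ± 0.052, adjusted p = 0.0388), of which Rab11b was not called with the term (-0.034 ± 0.069, adjusted p = 0.739). Rab11b was not called for IL-4+IL-10 against IL-4 without IL-4 replicate 1, 2 or 3 or IL-4+IL-10 replicate 1 (adjusted p = 0.0502 to 0.302).

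IL-4+IL-10 set against IL-10 alone compares arrays of the second set only. In the fit of all arrays, 26 of 38 Rab genes were called, 8 higher and 18 lower. Of all genes tested 59.9% were called, 31.8% higher and 28.1% lower. Of the 10 late endosomal Rab genes, 7 fell and 1 rose. A fit of the second set alone called 24 Rab genes, 8 higher and 16 lower, where 54.9% of all genes were called. The values below are from the fit of all arrays. Rab32 had 9.48, 9.50 and 9.60 with IL-4+IL-10, against 10.94, 10.86 and 10.95 with IL-10, a 2.62-fold lower level with no overlap (-1.39 ± 0.077, adjusted p = 8.92e-15). Rab31 had 11.66, 11.68 and 11.52 with IL-4+IL-10, against 12.11, 12.20 and 12.04 with IL-10 (-0.50 ± 0.056, adjusted p = 1.81e-08). Its IL-4+IL-10 arrays were all lower than its IL-10 arrays. The other leading falls were those of Rab6b (-0.73 ± 0.12, adjusted p = 1.02e-05), Rab7b (-0.70 ± 0.067, adjusted p = 8.52e-10), Rab33b (-0.58 ± 0.072, adjusted p = 1.14e-07) and Rab43 (-0.42 ± 0.087, adjusted p = 0.000141). The fall of Rab6b, which passed the filter with IL-10 but not with IL-4+IL-10, was bound to appear. The rises were led by Rab10 (0.56 ± 0.059, adjusted p = 4.87e-09), Rab38 (0.56 ± 0.14, adjusted p = 0.00128), Rab1b (0.29 ± 0.058, adjusted p = 9.79e-05) and Rab21 (0.22 ± 0.057, adjusted p = 0.00192). Rab3d and Rab22a were higher on the probe sets used (0.39 ± 0.096, adjusted p = 0.000965 for Rab3d and 0.36 ± 0.06, adjusted p = 8.36e-06 for Rab22a), but were not called on the others (0.088, adjusted p = 0.281 and 0.063, adjusted p = 0.489 for Rab3d, and -0.12, adjusted p = 0.116 for Rab22a).

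Whether a combination differed from the sum of its single-cytokine effects was tested by the interaction term. For IL-6, 18 of 38 Rab genes were called, 15 above the sum and 3 below it, where 39.9% of all genes tested were called, 21.4% above and 18.6% below. Those above the sum were led by Rab20 (1.43 ± 0.14, adjusted p = 2.18e-09), Rab34 (0.68 ± 0.098, adjusted p = 2.56e-06), Rab18 (0.44 ± 0.045, adjusted p = 8.9e-09), Rab4a (0.42 ± 0.13, adjusted p = 0.00869), Rab9 (0.35 ± 0.068, adjusted p = 0.000173) and Rab8b (0.32 ± 0.048, adjusted p = 4.55e-06). Those below it were Rab43 (-0.58 ± 0.091, adjusted p = 8.24e-06), Rab7b (-0.54 ± 0.07, adjusted p = 4.89e-07) and Rab40c (-0.20 ± 0.067, adjusted p = 0.0189). A term for the set left 16 called, where 38.6% of all genes were called, and the calls of Rab14 (0.082 ± 0.043, adjusted p = 0.133) and Rab31 (0.12 ± 0.05, adjusted p = 0.0549) ended with it. For IL-10, 13 were called, 9 above the sum and 4 below it, where 25.6% of all genes were called, 15.5% above and 10.1% below. Above the sum lay Rab20 (0.96 ± 0.16, adjusted p = 5.31e-05), Rab34 (0.67 ± 0.11, adjusted p = 6.99e-05), Rab4a (0.57 ± 0.15, adjusted p = 0.00561), Rab10 (0.40 ± 0.072, adjusted p = 0.00015) and Rab7 (0.24 ± 0.053, adjusted p = 0.0012). Rab22a lay above it on the probe set used (0.20 ± 0.073, adjusted p = 0.0411) and was not called on another (0.023, adjusted p = 0.872). Rab18, Rab21 and Rab2a lay above it too, and the calls of Rab18 (0.14 ± 0.053, adjusted p = 0.0518) and Rab21 (0.12 ± 0.056, adjusted p = 0.106) ended with a term for the set. Below it lay Rab32 (-0.62 ± 0.094, adjusted p = 1.58e-05), Rab43 (-0.58 ± 0.11, adjusted p = 0.000154), Rab29 (-0.28 ± 0.091, adjusted p = 0.025) and Rab31 (-0.22 ± 0.069, adjusted p = 0.0195). Rab22a was not called for the IL-10 interaction without IL-4 replicate 2 or 4 or IL-4+IL-10 replicate 1 or 2 or IL-10 replicate 2 or 3 or unstimulated replicate 1, 2, 4 or 5 (adjusted p = 0.051 to 0.121). Rab29 was not called for the IL-10 interaction without IL-4+IL-10 replicate 1 or IL-10 replicate 2 (adjusted p = 0.0597 to 0.117). Rab31 was not called for the IL-10 interaction without IL-10 replicate 2 or IL-4+IL-10 replicate 3 (adjusted p = 0.0751 to 0.085).

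Rab43 shows the interaction most plainly, since its group mean was above that of unstimulated cells with each cytokine alone and below it with each combination, although the calls with IL-4, with IL-6 and with IL-4+IL-10 ended with a term for the set. It had 9.02, 9.23, 8.92, 9.10 and 8.99 with IL-4+IL-6 and 8.88, 9.11 and 9.12 with IL-4+IL-10, against 9.54, 9.49, 9.42, 9.45 and 9.29 with IL-4, 9.42, 9.60, 9.51, 9.48 and 9.36 with IL-6, 9.31, 9.55 and 9.51 with IL-10, and a lowest, median and highest value of 9.13, 9.31 and 9.40 in unstimulated cells. The arrays of both combinations lay under all arrays with a single cytokine. Without IL-10 replicate 2 or 3 or unstimulated replicate 3, 5, 6 or 8, the call of Rab43 with IL-10 was lost (adjusted p = 0.0607 to 0.261). Its interaction differences, -0.58 ± 0.091 with IL-6 and -0.58 ± 0.11 with IL-10, kept their calls when the set entered the fit (-0.55 ± 0.094, adjusted p = 3.43e-05 with IL-6 and -0.55 ± 0.11, adjusted p = 0.000406 with IL-10). Rab32 and Rab7b both belong to the late endosomal route, and their largest departures from the sum came with different partners: the interaction of Rab32 was -0.62 ± 0.094 with IL-10 and -0.11 ± 0.08 with IL-6 (adjusted p = 0.277), and that of Rab7b was -0.54 ± 0.07 with IL-6 and -0.10 ± 0.082 with IL-10 (adjusted p = 0.366). The difference between the partners was not tested for either gene.

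**Figure D3:**
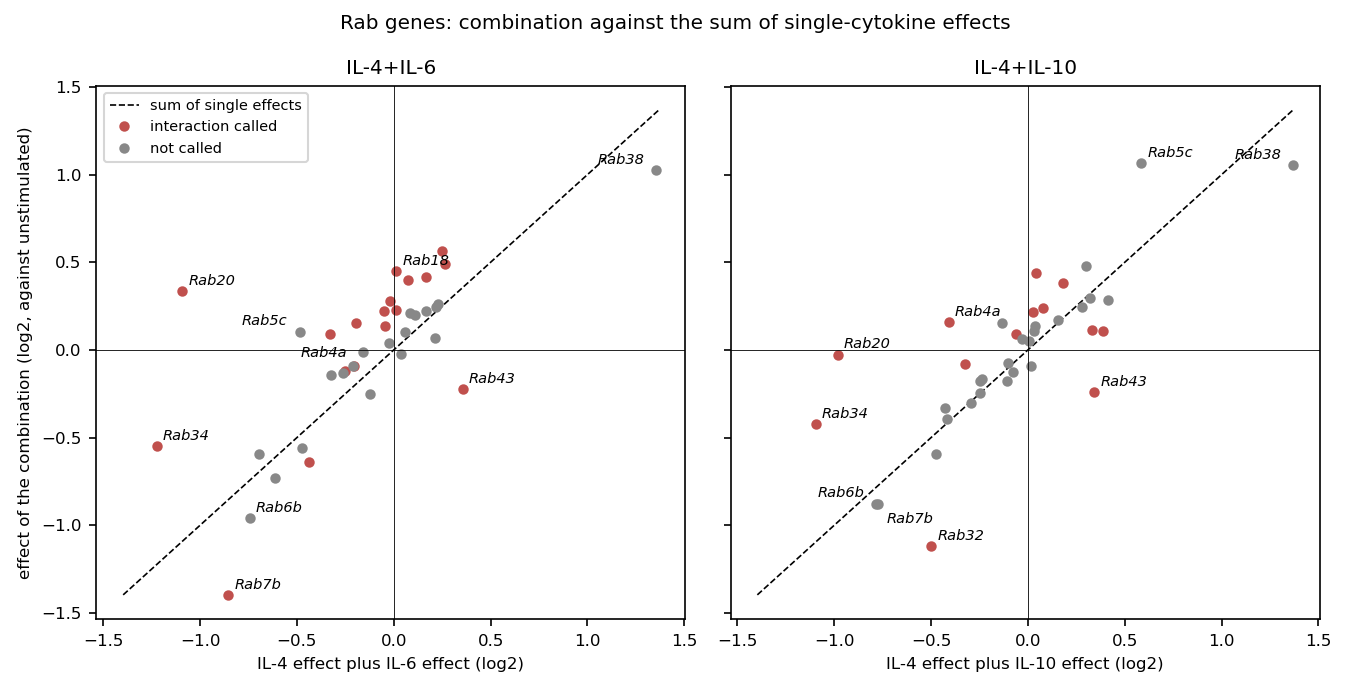
Log2 difference of each combination from unstimulated cells (vertical) against the sum of the differences of its 2 cytokines alone (horizontal), for the 38 tested Rab genes, with IL-4+IL-6 on the left and IL-4+IL-10 on the right. Points on the dashed line are equal to the sum, and red points had a called interaction. Rab20 and Rab34 lie above the line and Rab43 below it in both panels, Rab7b lies below it on the left and Rab32 below it on the right.

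Rab5c is the Rab gene that differed most between the sets. Unstimulated replicates 6 to 8 had 10.84, 10.95 and 10.93, against 9.50 to 9.77 in replicates 1 to 5, a difference of 1.28 ± 0.065 (SE, limma, adjusted p = 3.93e-06), the 13th largest by size of 7154 genes. Its levels were 11.17, 11.30 and 11.29 with IL-10 and 11.11, 11.26 and 11.13 with IL-4+IL-10, above all arrays of the first set. Pooled over all unstimulated arrays, its differences were 1.15 ± 0.25, adjusted p = 0.000489 with IL-10 and 1.06 ± 0.25, adjusted p = 0.000385 with IL-4+IL-10. Against unstimulated arrays of the same set alone, in fits of that set, they were 0.35 ± 0.067, adjusted p = 0.00355 with IL-10 and 0.27 ± 0.067, adjusted p = 0.00541 with IL-4+IL-10. In the first set, Rab5c had 10.03, 10.14, 10.51, 10.13 and 10.13 with IL-6 and 10.02, 10.16, 10.58, 10.18 and 10.11 with IL-4+IL-6, above all 5 unstimulated arrays of that set. The same-set differences were 0.56 ± 0.098, adjusted p = 0.000116 with IL-6 and 0.58 ± 0.098, adjusted p = 2.06e-05 with IL-4+IL-6, where the pooled ones (0.082 ± 0.21 and 0.10 ± 0.21) were not called. For IL-4 the same-set difference was -0.089 ± 0.098, adjusted p = 0.45. The isoform Rab5a, in contrast, had no called set difference, and was lower with IL-4 (-0.18 ± 0.044, adjusted p = 0.00112) and with IL-4+IL-10 (-0.30 ± 0.052, adjusted p = 1.1e-05). Rab5b lay under the filter on average in every group and was not called in any of the 5 comparisons with unstimulated cells.

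**Figure D4:**
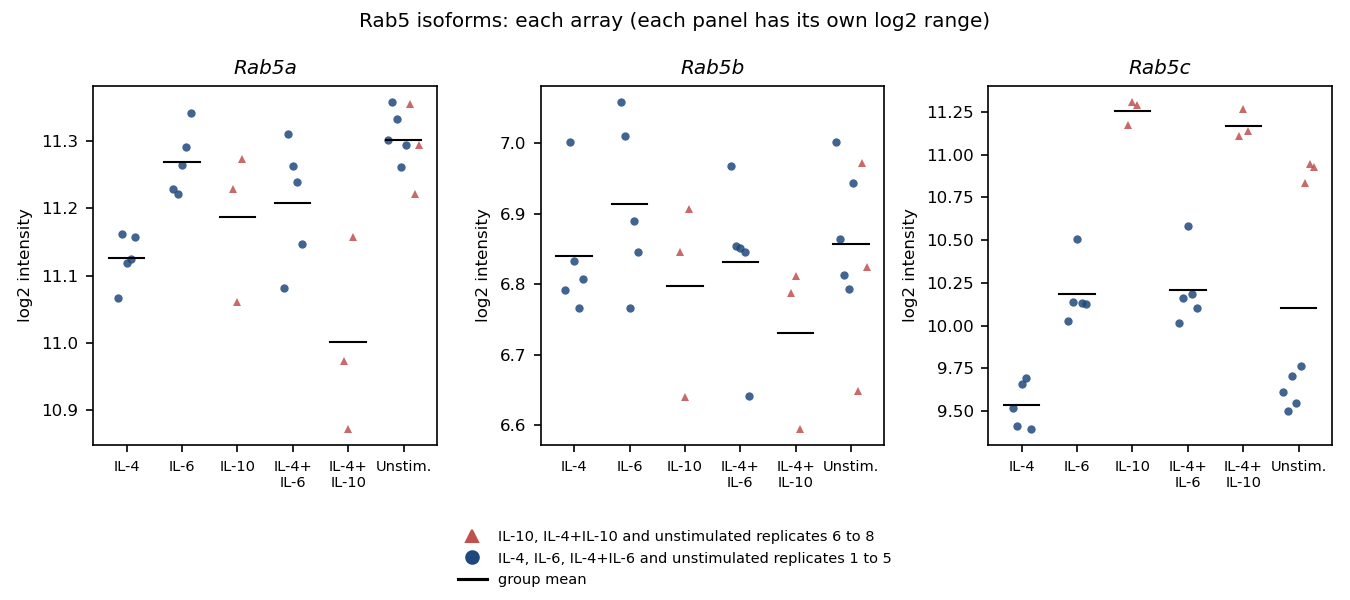
Log2 intensity on each array for the 3 Rab5 isoforms, each with its own vertical range, with the stimulated groups left of the unstimulated group. Circles are the first set of arrays, triangles the second, and bars are group means. The 3 unstimulated triangles of Rab5c lie above all 5 unstimulated circles, while those of Rab5a and Rab5b overlap the circles.

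In the first set, arrays with the same replicate number deviated together from their group means. With that number as a block, the calls of Rab4b (-0.11, adjusted p = 0.06), Rab5c (-0.089, adjusted p = 0.325) and Rab13 (-0.11, adjusted p = 0.0954) with IL-4, of Rab34 with IL-6 (-0.092, adjusted p = 0.131) and of Rab12 with IL-4+IL-6 (0.068, adjusted p = 0.175) ended. So did the interaction calls with IL-6 of Rab14 (0.082, adjusted p = 0.0657) and Rab31 (0.12, adjusted p = 0.0569). The calls of Rab20, Rab32, Rab34 and Rab7b with IL-4 were kept. With the block in a fit of the first set alone, Rab5c with IL-4 was not called (-0.089 ± 0.068, adjusted p = 0.262). Rab34 with IL-6 was not called there either (-0.092 ± 0.038, adjusted p = 0.054).

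For 27 of the 50 Rab genes the arrays carry more than 1 probe set, and the brightest was used. With IL-4 and the combinations, the others followed it for the main late endosomal members. The second probe set of Rab34 had -1.07 with IL-4, -0.59 with IL-4+IL-6 and -0.54 with IL-4+IL-10, against the brightest probe set's -1.03, -0.55 and -0.42. For Rab7b it had -0.65 with IL-4 and -1.42 with IL-4+IL-6, against -0.60 and -1.40. Rab20, Rab32, Rab38 and Rab5c had a single probe set. Rab10 rose in both combinations on all 3 of its probe sets, by 0.36 to 0.65 with IL-4+IL-6 and by 0.44 to 0.82 with IL-4+IL-10. Probe sets of Rab22a disagreed: the one used rose with IL-4+IL-6 (0.56), while another fell (-0.15, adjusted p = 0.00584), so no direction can be given for the gene as a whole. The same holds for Rab3d with IL-4+IL-6, where the probe set used rose (0.21) and another fell (-0.21, adjusted p = 0.00082). It holds too for Rab2a with IL-4+IL-6, where the probe set used rose (0.23) and another fell (-0.17, adjusted p = 0.000823). For Rab14 with IL-4+IL-6 the probe set used fell (-0.09) and another rose (0.37, adjusted p = 1.55e-06). For Rab11a with IL-4+IL-10 the probe set used rose (0.11) and another fell (-0.23, adjusted p = 0.00315). Rab31 fell with IL-4+IL-6 against IL-6 on the probe set used (-0.099 ± 0.044, adjusted p = 0.0472), and rose on the dimmer one (0.24, adjusted p = 0.0226). Rab31 was not called for IL-4+IL-6 against IL-6 without IL-6 replicate 1, 2, 3, 4 or 5 or IL-4+IL-6 replicate 1, 2, 3 or 4 (adjusted p = 0.0525 to 0.1).

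Members without a call complete the family. The 12 Rab genes under the filter were Rab3a, Rab3b, Rab3c, Rab17, Rab23, Rab25, Rab27a, Rab27b, Rab30, Rab33a, Rab37 and Rab40b, many of them Rab genes of regulated secretion in neurons, glands or epithelia. Their group means lay between 3.81 and 6.91, the highest array reached 7.00, and no group mean differed from the unstimulated one by more than 0.37. Of the 38 tested, 3 were called in none of the 5 comparisons with unstimulated cells. These were Rab8a, of transport to the plasma membrane, with differences of -0.054 to 0.058, and Rab5b and Rab15, both under the filter on average in all groups.

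The genes that regulate Rab proteins were read from 4 lists: prenylation, escort and GDI genes (11 tested of 15 listed), Rab GEFs (22 of 48), TBC-family GAPs (17 of 38) and Rab effectors (31 of 72). With IL-4, where 31.9% of all genes fell, 6 prenylation genes, 10 GEFs, 9 GAPs and 17 effectors fell, and 0, 2, 2 and 4 rose. The median difference in each list was -0.164, -0.109, -0.162 and -0.132, against -0.0136 over all genes tested. Gdi2, a GDP dissociation inhibitor, fell (-0.24 ± 0.023, adjusted p = 6.12e-10), and Vps39, a subunit of the HOPS tether that Rab7 recruits, fell by more (-0.63 ± 0.041, adjusted p = 1.62e-13). Among the GAPs, Rabgap1l (-0.78 ± 0.049, adjusted p = 9.95e-14) and Tbc1d8 (-0.55 ± 0.095, adjusted p = 1.35e-05) fell. The GEF that moved most was Rab3il1, which activates Rab8 proteins, and it rose (0.99 ± 0.047, adjusted p = 2.29e-16).

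With IL-6, where 16.1% of all genes rose and 23.1% fell, 1 prenylation gene, 2 GEFs, 4 GAPs and 6 effectors rose, and 1, 5, 1 and 7 fell. With IL-10, where 18.3% rose and 19.5% fell, 1, 5, 5 and 6 rose and 0, 3, 1 and 7 fell. Rab3il1 rose with IL-6 (1.15 ± 0.047, adjusted p = 3.52e-17) and with IL-10 (1.06 ± 0.056, adjusted p = 1.43e-14), and so did Dennd1a, a GEF known for Rab35 (0.89 ± 0.06, adjusted p = 1.99e-12 with IL-6, 0.98 ± 0.072, adjusted p = 1.23e-11 with IL-10). Mical1, an effector of Rab1 and related Rab proteins that oxidises actin, fell with both (-1.09 ± 0.074, adjusted p = 1.99e-12 with IL-6, -1.14 ± 0.088, adjusted p = 3.53e-11 with IL-10). Rab11fip5, an effector of Rab11, rose with both (0.87 ± 0.069, adjusted p = 3.87e-11 with IL-6, 0.67 ± 0.081, adjusted p = 1.4e-07 with IL-10). Tbc1d14, a TBC protein that binds Rab11 and restrains autophagy, differed by -0.57 ± 0.049, adjusted p = 8.78e-11 with IL-4, 0.50 ± 0.049, adjusted p = 2.75e-09 with IL-6, 0.79 ± 0.058, adjusted p = 1.33e-11 with IL-10 and 0.81 ± 0.049, adjusted p = 1.54e-14 with IL-4+IL-6.

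With IL-4+IL-6, where 35% of all genes rose and 38.8% fell, 6 prenylation genes, 7 GEFs, 5 GAPs and 14 effectors rose, and 3, 10, 8 and 13 fell. With IL-4+IL-10, where 38.1% rose and 34% fell, 4, 9, 6 and 14 rose and 3, 6, 7 and 12 fell. Rab3il1 had its largest differences here (1.57 ± 0.047, adjusted p = 1.64e-21 with IL-4+IL-6, 1.55 ± 0.056, adjusted p = 3.04e-19 with IL-4+IL-10). Rin2, a GEF of Rab5 proteins, fell in both (-1.08 ± 0.12, adjusted p = 2.62e-09 with IL-4+IL-6, -1.21 ± 0.14, adjusted p = 1.07e-08 with IL-4+IL-10), as did Tbc1d8 (-1.50 ± 0.095, adjusted p = 4.28e-14 with IL-4+IL-6, -1.20 ± 0.11, adjusted p = 2.81e-10 with IL-4+IL-10). Dennd4c, a GEF of Rab10, fell with IL-6 alone (-0.40 ± 0.043, adjusted p = 2.27e-08) and rose with IL-4+IL-6 (0.54 ± 0.043, adjusted p = 7.31e-12). Myo5a, the motor that several secretory Rab proteins recruit, rose with IL-4+IL-6 (0.60 ± 0.061, adjusted p = 8.95e-10).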

How the data were processed

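RNA of mouse bone marrow macrophages was measured on 29 Affymetrix arrays of 22690 probe sets, 1 array per sample. The authors deposited log2 intensities; RMA and GCOS 1.4 are named, per the submitters' processing notes, and their settings are not given in the sources used here. The values span 2.45 to 15.1, above the natural-log limit of a 16-bit scanner. Precision is limited by how many arrays there are. Of the probe sets, 20393 name 1 gene, 691 several and 1606 none, per the platform annotation; all but 29 of the first matched RefSeq. Each gene was taken from its probe set with the highest mean, and kept if 3 or more arrays exceeded the overall median value.

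Groups and replicate numbers came from the labels. A linear model by group over all arrays (limma 3.58.1 in R 4.3.3, two-sided) tested 11 comparisons, with Benjamini-Hochberg adjustment over 7154 genes and calls at an adjusted p under 0.05. It was tested on simulated data. The Rab genes and the lists of regulators were chosen with earlier results of these data known. The genes named were, per comparison, up to 6 called Rab genes in each direction by size of difference, those with a called difference of 0.5 or more from unstimulated cells, and up to 4 called genes per list; further members were picked with their values in view. Alternatives covered the scaling, the filter, the probe set rule, the variance model, array weights, the groups fitted, the threshold, the set of arrays, the replicate number as a block and leaving out each array.

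Pairing was checked from the correlation, over genes, of the deviations of same-numbered arrays from their group means. It was 0.415 to 0.70 among the groups of the first set, where the numbers were taken to pair the arrays, and -0.46 to 0.429 between IL-10 and unstimulated arrays, where they were not. Taken by order of number within the second set, it was 0.116 to 0.418 between IL-10 and unstimulated arrays, 0.312 to 0.451 between IL-4+IL-10 and unstimulated arrays and 0.596 to 0.776 between IL-4+IL-10 and IL-10, and that order was taken to pair those arrays. The labels state no pairing, and arrays of unlike number within a set were not compared.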

Additional observations from a re-analysis of the deposited data

Results flagged for a closer look

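Of 152 groups of 4 or more arrays checked over the 38 tested Rab genes, 10 held 1 array whose log2 level stood far from the others of its group, and chance alone flags about 1 in 20. Rab14 in IL-4 replicate 2 was the highest of its group at 12.92, with the others at 12.86 to 12.87. Rab28 in IL-4 replicate 4 was the lowest of its group at 9.72, with the others at 9.80 to 9.82. Rab31 in IL-4 replicate 3 was the highest of its group at 11.33, with the others at 11.18 to 11.22. Rab31 in IL-4+IL-6 replicate 5 was the highest of its group at 11.74, with the others at 11.61 to 11.63. Rab32 in unstimulated replicate 6 was the highest of its group at 10.98, with the others at 10.53 to 10.65. Rab4b in IL-4 replicate 2 was the lowest of its group at 9.36, with the others at 9.53 to 9.58. Rab4b in unstimulated replicate 7 was the highest of its group at 9.92, with the others at 9.54 to 9.70. Rab5b in IL-4 replicate 2 was the highest of its group at 7.00, with the others at 6.77 to 6.83. Rab5c in IL-6 replicate 3 was the highest of its group at 10.51, with the others at 10.03 to 10.14. Rab7b in unstimulated replicate 7 was the highest of its group at 12.44, with the others at 12.16 to 12.29. Their causes were not tested.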

How the results depend on the processing

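Over 255 called Rab differences, none changed direction under the alternatives named in the next sentence or with 1 array left out, and every one kept its call with a variance model with trend and robust estimation. Calls were lost for 9 under quantile normalization, 9 with array weights, 11 with median centring, 24 without a filter, 29 with only the groups compared in the fit and 35 with a term for the set, and for none of the 203 that a filter at the 75th percentile left in. The count of Rab genes called with IL-10 fell to 8 with the arrays of the second set fitted alone and to 11 with the replicate number as a block in them, both chosen after seeing the data, and to 11 at an adjusted p under 0.01. IL-4+IL-10 against IL-4 had 15 with a term for the set, and the IL-10 interaction had 8 when probe sets were averaged per gene, 8 with only the groups compared and 7 at an adjusted p under 0.01. In these the cause was not tested. No share over all genes is given here, so these counts show only how the Rab calls depend on the processing. With each array left out in turn, the count ranged from 12 to 19 for IL-10 minus unstimulated, 26 to 29 for IL-4 minus unstimulated, 24 to 26 for IL-4+IL-10 minus IL-10, 21 to 25 for IL-4+IL-10 minus IL-4, 27 to 31 for IL-4+IL-10 minus unstimulated, 24 to 27 for IL-4+IL-6 minus IL-4, 22 to 23 for IL-4+IL-6 minus IL-6, 29 to 32 for IL-4+IL-6 minus unstimulated, 15 to 19 for IL-6 minus unstimulated, 9 to 13 for the interaction of IL-4 with IL-10, 17 to 20 for the interaction of IL-4 with IL-6. At least 1 array left out ended 46 of the 255 calls, and for 17 of them only 1 array did. IL-10 replicate 2 did so for 13 calls, more than any other.

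With the replicate number as a block, the Rab genes called in comparisons within the first set were 27 for IL-4 minus unstimulated, 16 for IL-6 minus unstimulated, 31 for IL-4+IL-6 minus unstimulated, 28 for IL-4+IL-6 minus IL-4, 23 for IL-4+IL-6 minus IL-6, 19 for the interaction of IL-4 with IL-6, and none of these counts moved by over 1.5 times. In the second set fitted alone, with the order of number as the block, they were 11 for IL-10 minus unstimulated, 25 for IL-4+IL-10 minus unstimulated, 26 for IL-4+IL-10 minus IL-10. The label's own numbers were not taken to pair IL-10 or IL-4+IL-10 arrays with unstimulated ones, so no count with them is given for the comparisons that include IL-10. The calls of the first set that the block ended stand in the report. For the fits with a block no share over all genes is given, so their counts are not a result about Rab genes.

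Another probe set, or an average over probe sets, turned the direction of 47 values (log2). Of 184 checks of a call on another probe set, 100 kept the call, 47 lost it and 37 turned direction. With probe sets averaged per gene, 215 of the 255 calls were kept, 30 were lost and 10 turned direction. For Rab14, another probe set gave 0.096 (IL-4 minus unstimulated), 0.37 (IL-4+IL-6 minus unstimulated), and the average of its probe sets gave 0.00059 (IL-4+IL-6 minus unstimulated), and a further one gave 0.058 (IL-4+IL-6 minus unstimulated), 0.17 (IL-4+IL-10 minus unstimulated), 0.14 (IL-4+IL-10 minus IL-10), and a further one gave 7.0e-05 (IL-4+IL-10 minus unstimulated). For Rab22a, the average of its probe sets gave -0.10 (IL-4 minus unstimulated), -0.11 (IL-4+IL-10 minus IL-10), -0.0073 (Interaction of IL-4 with IL-10), and another probe set gave -0.15 (IL-4 minus unstimulated), -0.15 (IL-4+IL-6 minus unstimulated), -0.0032 (IL-4+IL-10 minus unstimulated), -0.0024 (IL-4+IL-6 minus IL-4), -0.13 (IL-4+IL-6 minus IL-6), -0.12 (IL-4+IL-10 minus IL-10). For Rab3d, another probe set gave -0.014 (IL-4 minus unstimulated), -0.21 (IL-4+IL-6 minus unstimulated), -0.14 (IL-4+IL-6 minus IL-6), and the average of its probe sets gave -0.084 (IL-4+IL-6 minus unstimulated), and a further one gave -0.094 (IL-4+IL-6 minus unstimulated), -0.099 (IL-4+IL-6 minus IL-6), -0.034 (IL-4+IL-10 minus IL-4). For Rab18, another probe set gave -0.084 (IL-10 minus unstimulated), -0.0021 (IL-4+IL-10 minus unstimulated), -0.028 (IL-4+IL-10 minus IL-4). For Rab2a, another probe set gave -0.17 (IL-4+IL-6 minus unstimulated), -0.20 (IL-4+IL-10 minus unstimulated), -0.14 (IL-4+IL-6 minus IL-4), -0.078 (IL-4+IL-6 minus IL-6), -0.0904 (IL-4+IL-10 minus IL-10), -0.051 (Interaction of IL-4 with IL-6), -0.063 (Interaction of IL-4 with IL-10), and a further one gave -0.0395 (IL-4+IL-6 minus unstimulated), -0.13 (IL-4+IL-10 minus unstimulated), -0.0082 (IL-4+IL-6 minus IL-4), -0.018 (IL-4+IL-10 minus IL-10), and the average of its probe sets gave -0.0496 (IL-4+IL-10 minus unstimulated), -0.033 (IL-4+IL-10 minus IL-10), -0.11 (Interaction of IL-4 with IL-10). For Rab7, another probe set gave 0.044 (IL-4+IL-6 minus unstimulated). For Rab11a, the average of its probe sets gave -0.058 (IL-4+IL-10 minus unstimulated), and another probe set gave -0.23 (IL-4+IL-10 minus unstimulated). For Rab31, the average of its probe sets gave 0.070 (IL-4+IL-6 minus IL-6), and another probe set gave 0.24 (IL-4+IL-6 minus IL-6). For Rab21, another probe set gave -0.017 (IL-4+IL-10 minus IL-4), -0.068 (Interaction of IL-4 with IL-10).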
